A study of Mus musculus with 13 samples.

Results

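The genes described here are markers of ciliated and ductal epithelium, that is of cells that line tubes and, in part, carry beating cilia. They were measured in the epididymal fat of male mice. There were 36 named genes, 13 of the 34 measured ones being parts of the motile cilium or its regulator and the other 21 genes of simple epithelia and ducts. Of the 36, 34 had a probe set annotated to exactly 1 symbol, out of 18818 genes measured in all. Ccdc39 and Dnah11 were listed only on probe sets naming several genes and were not used here. The genes were chosen by their values on these same arrays, because they separated vehicle from αGalCer and differed between vehicle arrays, so those contrasts are given as a description. Counts of genes past limma's threshold stand there beside the share of all genes, and support nothing. The set served as a marker of duct tissue beside the fat pad.

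The 13 arrays fell into 4 groups of C57Bl/6J background, all on a high-fat diet from 6 weeks of age and for 4 days. Wild type mice (C57/BL6) gave 3 arrays after the vehicle pyridine and 4 after α-galactosylceramide (αGalCer), a glycolipid that activates natural killer T cells when CD1d presents it. CD1d knockout mice (B6.129S6-Cd1d1/Cd1d2tm1spb/J), which lack CD1d throughout the body and with it these T cells, gave 3 arrays after vehicle and 3 after αGalCer. αGalCer was given at 100 ng per g of body weight into the peritoneum on days 0 and 2, and tissue was taken on day 4, at 6.5 weeks. Whether the arrays of a group came from separate mice is not stated in the labels, so p-values measure the spread between samples that may differ only technically. Levels are log2 values, so a difference of 1 is a doubling, and values of a group are given in the order of its replicate numbers.

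A motile cilium is built on a ring of paired microtubules with a central pair inside. Dynein arms drive the bending, radial spokes and the central pair coordinate it, and the transcription factor FOXJ1 with the RFX family switches on the genes for these parts. In the male tract, multiciliated cells line the efferent ducts between testis and epididymis, whereas the epididymal duct itself is lined by secretory and absorptive cells whose surface projections do not beat. Fat cells carry no motile cilia, and the epididymal fat pad lies against the epididymis.

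Short stretches of promoter are shown because genes of 1 organelle can share binding letters upstream. Promoters came from RefSeq (GRCm38.p6) for 28 of the 34 genes. The 250 bases before each gene start were searched on both strands for GTTGCCA, a site of the RFX factors, TGTTTAC, a forkhead site, and AGGAAGT, an ETS site. In the sequences below, written 5′ to 3′ on the gene's strand, the capitals mark the motif or its reverse complement.
Hydin, 14 bases before the start, chr8:110266943-110266976 (plus strand): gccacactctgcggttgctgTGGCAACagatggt
Lrrc23, 39 bases before the start, chr6:124779740-124779786 (minus strand): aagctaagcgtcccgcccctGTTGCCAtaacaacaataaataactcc
Lrrc23, 158 bases before the start, chr6:124779859-124779905 (minus strand): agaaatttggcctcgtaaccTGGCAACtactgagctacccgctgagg
Tekt1, 15 bases before the start, chr11:72361883-72361917 (minus strand): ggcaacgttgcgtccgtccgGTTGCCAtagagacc
Mmp7, 109 bases before the start, chr9:7691961-7692007 (plus strand): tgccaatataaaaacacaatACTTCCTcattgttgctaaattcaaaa
Pax8, 211 bases before the start, chr2:24475784-24475830 (minus strand): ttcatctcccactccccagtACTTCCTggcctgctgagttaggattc
Krt8, 205 bases before the start, chr15:102004521-102004567 (minus strand): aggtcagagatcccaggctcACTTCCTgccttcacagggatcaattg
Cldn7, 118 bases before the start, chr11:69964641-69964687 (plus strand): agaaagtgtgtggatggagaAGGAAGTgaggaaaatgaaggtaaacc
The letters were kept from several forms tried, so the shares that follow are a description and support nothing. The 15 promoters of the ciliary members belonged to 10 genes, and the 23 of the epithelial members to 18. The RFX letters stood in 3 of 15 promoters of the ciliary members (20%), those of Hydin, Lrrc23 and Tekt1, against 3.66% of all 32851 promoters. They stood in 12 of 61 promoters of other motile cilium genes (19.7%) and in 0 of 23 promoters of the epithelial members. The ETS letters stood in 4 of these 23 promoters (17.4%), against 7.69% of all promoters, and in 0 of the 15 ciliary ones. In other epithelial genes they stood in only 2 of 43 promoters (4.65%), below the share of all promoters. In other motile cilium genes they stood in 4 of 61 (6.56%). The forkhead letters stood in 0 of the 15 and 0 of the 23, against 3.17% of all promoters. No member's promoter held more than 1 kind of these motifs (that of Lrrc23 held the RFX letters at both places shown), and a match is a description of letters and not of binding.

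The mean of the 34 genes was higher on all vehicle arrays than on the αGalCer arrays, and it differed widely between vehicle arrays of 1 group. It was 7.59, 5.95 and 5.19 on knockout vehicle arrays 1, 2 and 3, and 6.74, 5.54 and 6.72 on wild type vehicle arrays 1, 2 and 3. On the 7 αGalCer arrays of both genotypes it lay between 4.87 and 5.03. The mean of all genes was 6.47 to 6.54 on every array. Within the knockout vehicle group, array 1 was the highest and array 3 the lowest for 30 of the 34 genes, as for 23.6% of all genes. Within the wild type vehicle group, array 2 was lowest for 31 genes, against 33.5% of all genes. Array 1 of the knockout vehicle group was the highest of the 6 vehicle arrays for 29 genes, against 30.6% of all genes, and exceeded array 3 by at least 1 for 28 genes, against 3.62% of all genes. In bulk tissue, fewer cells of a type and less RNA per cell cannot be told apart.

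Several libraries stood apart in ways that touch these genes. The deleted Cd1d1 was at 9.08 to 10.86 on the 7 wild type arrays and at 2.64 to 4.03 on the 6 knockout arrays, as labelled, while Cd1d2 was at 4.62 to 5.05 and 4.62 to 5.01. Adipocyte markers averaged 12.20 to 12.38 on the 9 arrays other than wild type αGalCer, as befits fat, and 10.42 to 11.20 on the 4 wild type αGalCer arrays. Wild type vehicle array 3 carried transcripts of some genes of the epididymal duct. Knockout vehicle arrays 1 and 2 and knockout αGalCer array 3 carried transcripts of skeletal muscle. As a yardstick of background, the 95th percentile of 990 olfactory receptor genes was taken on each array, which was 4.45 to 4.75. A gene at or under it is said to be in the background range. The values of the marker lists are given below beside the results they touch.

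**Figure D1:**
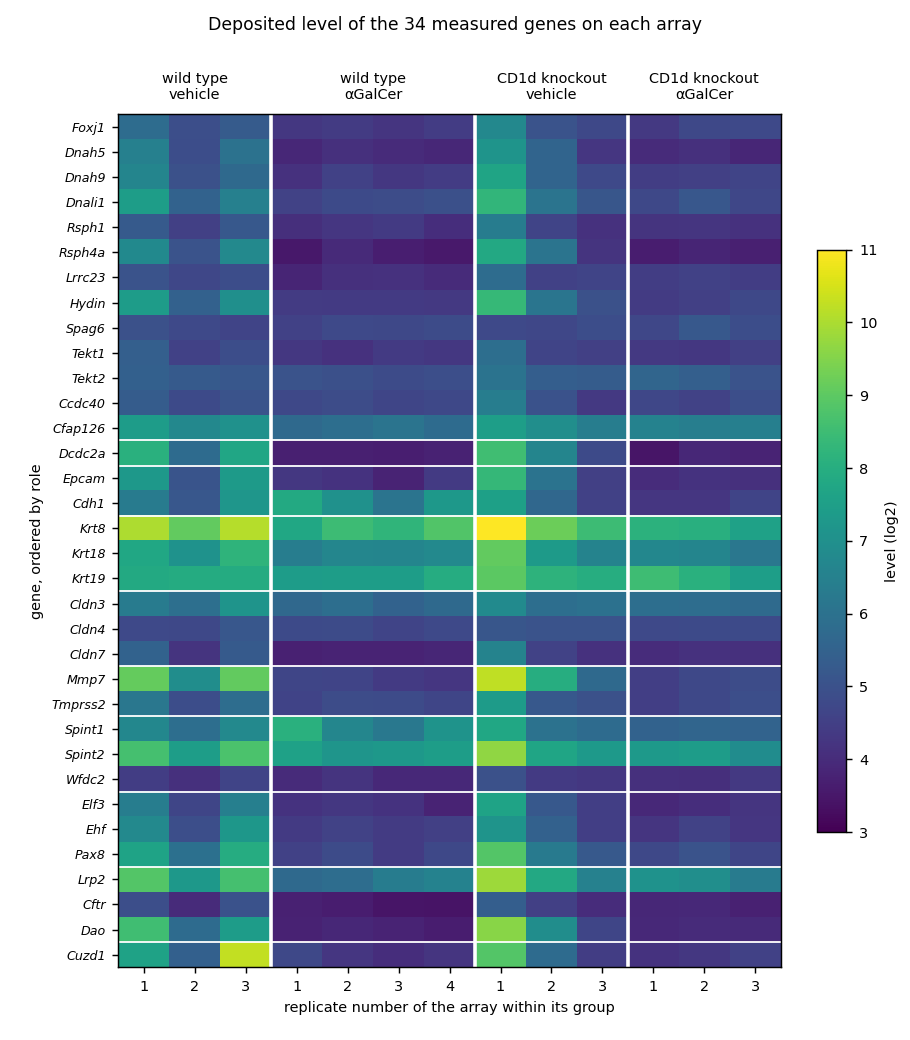
Deposited log2 level of the 34 measured genes (rows, ordered by role; white lines part the roles) on the 13 arrays (columns, by group and replicate number), with yellow for high and dark blue for low. Knockout vehicle array 1 is the brightest column and array 3 the darkest of the vehicle columns for most rows, and the 7 αGalCer columns are dark for most rows.

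Foxj1, the transcription factor that starts motile cilium formation, had a range of 2.50 over the arrays. Foxj1 was at 5.82, 4.93 and 5.30 on the wild type vehicle arrays, 4.30, 4.39, 4.24 and 4.41 on the wild type αGalCer arrays, 6.74, 5.06 and 4.74 on the knockout vehicle arrays and 4.34, 4.74 and 4.76 on the knockout αGalCer arrays. Only knockout vehicle array 3, at 4.74, lay within the span of the αGalCer arrays.

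The outer dynein arm heavy chains Dnah5 and Dnah9 are motors of the ciliary beat. The level of Dnah5 was 6.48, 4.88 and 6.01 in wild type after vehicle and 3.88, 4.12, 4.00 and 3.89 after αGalCer, and 7.15, 5.56 and 4.26 in the knockout after vehicle and 3.98, 4.11 and 3.87 after αGalCer. For Dnah9, the arrays read 6.63, 4.98 and 5.73 (wild type, vehicle), 4.15, 4.56, 4.31 and 4.41 (wild type, αGalCer), 7.67, 5.58 and 4.76 (knockout, vehicle) and 4.44, 4.51 and 4.65 (knockout, αGalCer). Every vehicle array of both genes exceeded every αGalCer array. Dnali1, a light chain of the inner arms, spanned 3.69 between its lowest and highest array. After vehicle Dnali1 stood at 7.45, 5.51 and 6.50 in wild type and 8.26, 6.09 and 5.14 in the knockout, and after αGalCer at 4.57, 4.80, 4.87 and 4.94 in wild type and 4.74, 5.16 and 4.70 in the knockout. Knockout αGalCer array 2 was level with knockout vehicle array 3 for this gene.

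Rsph1 and Rsph4a form the heads of the radial spokes. Rsph4a was at 6.79, 5.03 and 6.78 on the wild type vehicle arrays, 3.52, 3.96, 3.67 and 3.56 on the wild type αGalCer arrays, 7.83, 6.08 and 4.21 on the knockout vehicle arrays and 3.63, 3.83 and 3.71 on the knockout αGalCer arrays. The level of Rsph1 was 5.28, 4.53 and 5.22 in wild type after vehicle and 4.07, 4.28, 4.37 and 4.05 after αGalCer, and 6.36, 4.65 and 4.14 in the knockout after vehicle and 4.19, 4.25 and 4.13 after αGalCer. Rsph4a had the largest range of the ciliary genes, 4.31, and its groups did not overlap in either genotype. The lowest vehicle array of Rsph1, knockout array 3, was level with the αGalCer arrays. Lrrc23, another spoke protein, had a range of 1.99. Hydin belongs to the central pair apparatus. For Hydin, the arrays read 7.43, 5.50 and 6.98 (wild type, vehicle), 4.38, 4.37, 4.37 and 4.33 (wild type, αGalCer), 8.37, 6.11 and 4.97 (knockout, vehicle) and 4.38, 4.51 and 4.73 (knockout, αGalCer). Its 4 wild type αGalCer values lay at 4.33 to 4.38, below all 6 vehicle arrays. Spag6, also of the central pair, did not share the pattern: it ranged from 4.55 to 5.20 over all arrays and was highest on a knockout αGalCer array.

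Ccdc40, part of the ruler that sets the spacing of arms and spokes, stood out on 1 array. After vehicle Ccdc40 stood at 5.33, 4.80 and 5.06 in wild type and 6.39, 5.02 and 4.33 in the knockout, and after αGalCer at 4.72, 4.86, 4.66 and 4.75 in wild type and 4.71, 4.57 and 4.92 in the knockout. Only knockout vehicle array 1 lay well above the rest. The tektins Tekt1 and Tekt2, filament proteins inside the microtubule doublets, had ranges of 1.75 and 1.24. A further probe set of Tekt2 had a range of 0.23. Cfap126 (Flattop), which acts in the placement of basal bodies, had a range of 1.73 and lay at 5.75 to 6.09 after αGalCer in wild type and at 6.42 to 6.54 in the knockout.

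Dcdc2a, a doublecortin family protein of primary cilia, varied more than any of the motile cilium genes. Dcdc2a was at 8.07, 5.81 and 7.72 on the wild type vehicle arrays, 3.71, 3.72, 3.67 and 3.77 on the wild type αGalCer arrays, 8.54, 6.63 and 4.79 on the knockout vehicle arrays and 3.46, 3.89 and 3.79 on the knockout αGalCer arrays. The 6 vehicle arrays lay at 4.79 to 8.54 and the 7 αGalCer arrays at 3.46 to 3.89, with no overlap.

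Mmp7 and Tmprss2 are epithelial proteases, the first secreted (matrilysin) and the second anchored in the membrane. The level of Mmp7 was 9.10, 6.92 and 9.07 in wild type after vehicle and 4.68, 4.65, 4.37 and 4.28 after αGalCer, and 10.22, 7.99 and 5.73 in the knockout after vehicle and 4.49, 4.75 and 4.86 after αGalCer. For Tmprss2, the arrays read 6.17, 4.90 and 5.86 (wild type, vehicle), 4.61, 4.87, 4.83 and 4.68 (wild type, αGalCer), 7.39, 5.21 and 5.00 (knockout, vehicle) and 4.48, 4.73 and 4.93 (knockout, αGalCer). Mmp7 was 22.5-fold higher on knockout vehicle array 1 than on array 3, and even array 3 lay above all αGalCer arrays. Spint1 and Spint2 are Kunitz inhibitors of such membrane proteases. After vehicle Spint1 stood at 6.71, 5.88 and 6.78 in wild type and 7.76, 6.01 and 5.78 in the knockout, and after αGalCer at 8.08, 6.66, 6.19 and 7.12 in wild type and 5.52, 5.62 and 5.55 in the knockout. Spint2 measured 8.64, 7.46 and 8.74 and, in the knockout, 9.67, 7.69 and 7.30 after vehicle, against 7.57, 7.17, 7.27 and 7.45 and, in the knockout, 7.34, 7.41 and 6.90 after αGalCer. Spint1, like Cdh1 described next, lay higher on every wild type αGalCer array than on any knockout αGalCer array, with its highest level of all on wild type αGalCer array 1. Its wild type αGalCer values of 6.66 and 6.19 lay below the 6.71 and 6.78 of wild type vehicle arrays 1 and 3. Spint2 lay above the background range on all 13 arrays. Wfdc2, a small secreted protein with whey acidic protein domains, varied only from 3.91 to 5.00.

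Epcam and Cdh1 (E-cadherin) hold epithelial cells together. Epcam was at 7.27, 5.09 and 7.34 on the wild type vehicle arrays, 4.31, 4.17, 3.79 and 4.36 on the wild type αGalCer arrays, 8.33, 6.04 and 4.50 on the knockout vehicle arrays and 4.02, 4.17 and 4.11 on the knockout αGalCer arrays. The level of Cdh1 was 6.34, 5.18 and 7.20 in wild type after vehicle and 7.84, 7.04, 6.08 and 7.25 after αGalCer, and 7.56, 5.68 and 4.56 in the knockout after vehicle and 4.27, 4.27 and 4.64 after αGalCer. Among the vehicle arrays both were highest on knockout array 1. After αGalCer Cdh1 lay at 6.08 to 7.84 on the wild type αGalCer arrays, against 5.18 to 7.20 on the wild type vehicle arrays, and at 4.27 to 4.64 on the knockout αGalCer arrays. Krt8 and Krt18 pair as the keratin filaments of simple epithelia, mesothelium included. For Krt8, the arrays read 10.00, 9.07 and 10.11 (wild type, vehicle), 7.76, 8.49, 8.23 and 8.82 (wild type, αGalCer), 11.01, 9.20 and 8.49 (knockout, vehicle) and 8.14, 8.06 and 7.59 (knockout, αGalCer). After vehicle Krt18 stood at 7.75, 7.07 and 8.21 in wild type and 9.06, 7.35 and 6.58 in the knockout, and after αGalCer at 6.40, 6.67, 6.64 and 6.77 in wild type and 6.71, 6.63 and 6.16 in the knockout. Both stayed above the background range on all 13 arrays. Krt19, another such keratin, ran from 7.41 to 8.97. Claudins seal the junctions between epithelial cells. Cldn7 measured 5.52, 4.19 and 5.27 and, in the knockout, 6.58, 4.58 and 4.15 after vehicle, against 3.74, 3.79, 3.79 and 3.87 and, in the knockout, 4.02, 4.14 and 4.10 after αGalCer. Cldn7 was highest on knockout vehicle array 1. Cldn3 had a range of 1.61 and was highest on wild type vehicle array 3, at 7.14, and Cldn4 had the smallest range of all 34 genes, 0.56.

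Elf3 and Ehf are ETS transcription factors of epithelia, and Pax8 is a regulator of the kidney, the thyroid and the genital tract. Elf3 was at 6.38, 4.68 and 6.45 on the wild type vehicle arrays, 4.18, 4.30, 4.17 and 3.80 on the wild type αGalCer arrays, 7.65, 5.22 and 4.49 on the knockout vehicle arrays and 3.92, 4.04 and 4.23 on the knockout αGalCer arrays. The level of Ehf was 6.75, 4.92 and 7.22 in wild type after vehicle and 4.36, 4.59, 4.40 and 4.52 after αGalCer, and 7.15, 5.48 and 4.47 in the knockout after vehicle and 4.24, 4.57 and 4.26 after αGalCer. For Pax8, the arrays read 7.64, 5.95 and 7.96 (wild type, vehicle), 4.56, 4.83, 4.40 and 4.73 (wild type, αGalCer), 8.86, 6.26 and 5.23 (knockout, vehicle) and 4.72, 5.06 and 4.69 (knockout, αGalCer). Elf3 and Pax8 had every vehicle array above every αGalCer array, and Ehf had all but knockout vehicle array 3.

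Lrp2 (megalin) takes up proteins at the apical surface of absorptive epithelia. After vehicle Lrp2 stood at 8.85, 7.27 and 8.64 in wild type and 9.84, 7.83 and 6.51 in the knockout, and after αGalCer at 5.74, 5.86, 6.37 and 6.54 in wild type and 7.07, 6.96 and 6.34 in the knockout. It kept 5.74 to 7.07 after αGalCer, still above the background range on every array. Dao, the peroxisomal D-amino acid oxidase, was in the background range on knockout vehicle array 3 and high on array 1. Dao measured 8.54, 5.81 and 7.42 and, in the knockout, 9.59, 6.93 and 4.67 after vehicle, against 3.78, 3.90, 3.80 and 3.62 and, in the knockout, 3.92, 3.98 and 3.96 after αGalCer. Cftr, the apical chloride channel, was also highest on knockout vehicle array 1, at 5.40, with a range of 2.00. Cuzd1, a membrane protein with CUB and zona pellucida domains, had the largest range of all, 6.23. Cuzd1 was at 7.60, 5.45 and 10.27 on the wild type vehicle arrays, 4.74, 4.27, 4.04 and 4.22 on the wild type αGalCer arrays, 8.85, 5.81 and 4.44 on the knockout vehicle arrays and 4.17, 4.30 and 4.56 on the knockout αGalCer arrays. Its highest array was wild type vehicle array 3, 6.34-fold above wild type vehicle array 1.

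**Figure D2:**
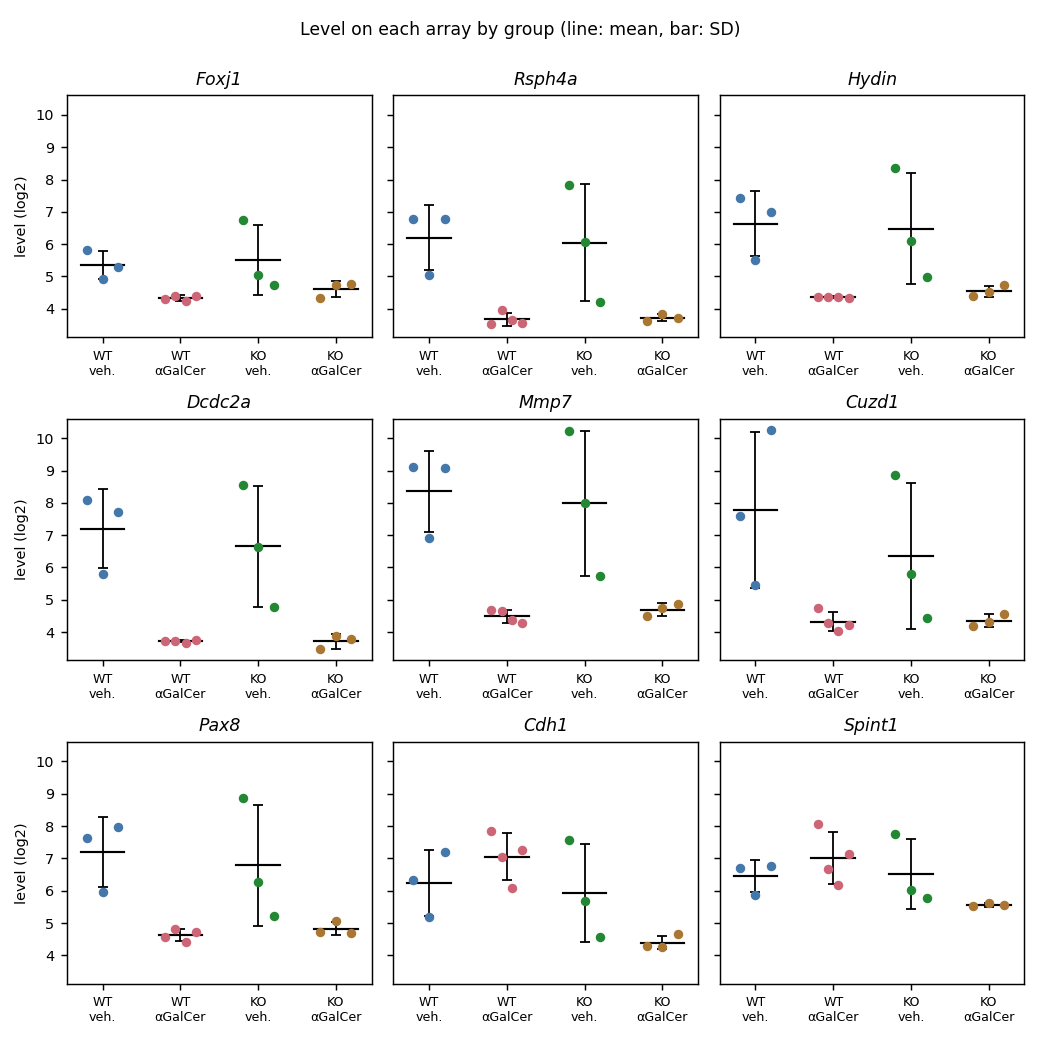
Log2 level on each array for 9 of the genes, by group (WT, wild type; KO, CD1d knockout; veh., vehicle), with a point per array, the mean as a line and the SD as a bar. The αGalCer arrays lie close together at the foot for Foxj1, Rsph4a, Hydin, Dcdc2a, Mmp7, Cuzd1 and Pax8. Cdh1 and Spint1 instead lie higher on all 4 wild type αGalCer arrays than on the knockout αGalCer arrays.

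Over the 13 arrays, 24 of the 34 genes had a range of at least 2, as did 11.3% of all genes. After αGalCer 13 of the 34 genes lay in the background range on all 7 arrays, against 23.3% of all genes, and with the 99th percentile 24 did, against 32.3%. Among the ciliary genes 6 of 13 did so with the 95th percentile, Dnah5, Rsph1, Rsph4a, Lrrc23, Hydin and Tekt1, and among the others Dcdc2a, Epcam, Cldn7, Wfdc2, Elf3, Cftr and Dao. All 34 genes were above the range on knockout vehicle array 1, against 74.7% of all genes.

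In wild type mice 32 of the 34 genes had a lower mean after αGalCer than after vehicle, with the largest differences for Mmp7, Dcdc2a, Dao and Cuzd1. In the limma model across all genes, the change (log2, ± SE) was -3.87 ± 0.79 for Mmp7, -3.48 ± 0.69 for Dcdc2a, -3.48 ± 0.87 for Dao, -3.45 ± 1.02 for Cuzd1, -2.56 ± 0.67 for Pax8, -2.53 ± 0.64 for Rsph4a, -2.41 ± 0.72 for Epcam and -2.28 ± 0.62 for Hydin (3 vehicle and 4 αGalCer arrays). As a description, 20 of the 34 passed an adjusted p of 0.05 as lower and 0 as higher, where 22% of all genes passed as lower and 19.8% as higher. By role, these were 8 of the 13 motile cilium genes, the 1 primary cilium gene, 3 of 8 adhesion, keratin and claudin genes, 1 of 5 proteases and inhibitors, all 3 epithelial transcription factors and all 4 apical genes with Cuzd1. The median change of the 34 was -1.14 against -0.02 over all genes, and the changes above 0 were those of Cdh1 (0.82 ± 0.63) and Spint1 (0.56 ± 0.48). The arrays of this contrast also differed in macrophage, T cell, adipocyte and mesothelial markers (values below), whose part was not tested. For 26 genes all wild type vehicle arrays lay above all wild type αGalCer arrays, as for 25% of all genes. The count of 20 was 9 without wild type vehicle array 1 and 10 without wild type vehicle array 3.

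In CD1d knockout mice 33 of the 34 changes also lay below 0, with none past limma's threshold. The change was -3.28 ± 0.85 for Mmp7, -3.11 ± 0.93 for Dao, -2.94 ± 0.74 for Dcdc2a, -2.32 ± 0.69 for Rsph4a, -2.19 ± 0.77 for Epcam, -2.02 ± 1.09 for Cuzd1, -1.96 ± 0.72 for Pax8 and -1.94 ± 0.66 for Hydin (3 and 3 arrays). The median over the 34 genes was -1.15, against 0.01 over all genes, and Spag6 was the 1 gene above 0. Limma called 0 of the 34, and 0% of all genes. An unadjusted p under 0.05 was found for 19 of the 34, beside 1281 of all 18818 genes. For 17 genes all knockout vehicle arrays lay above all knockout αGalCer arrays, as for 6.04% of all genes, and for 13 genes all 6 vehicle arrays lay above all 7 αGalCer arrays, as for 1.65% of all genes. The median depended on knockout vehicle array 1, without which it was -0.39. Without that array, wild type vehicle array 3 and knockout αGalCer array 3, which carried epididymal or muscle transcripts, it was -0.35, with 0 of the 34 called. Knockout vehicle array 2, which also carried muscle transcripts, stayed in that fit. The difference between the effects in knockout and wild type had a median of 0.14, and limma called 0 of the 34, against 28.2% of all genes. This contrast carries the wide spread of the vehicle arrays, with an SE of 1.01 for Dcdc2a, 1.16 for Mmp7 and 1.27 for Dao. The count of 0 therefore does not show that the effects were equal. An unadjusted p under 0.05 was found for 2 of the 34, beside 6833 of all 18818 genes.

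The genotypes after vehicle are compared as a description too, since the genes were picked in part for their spread over these same 6 arrays, which widens the error of this contrast. Limma called 0 of 34 at an adjusted p of 0.05, where it called 0.112% of all genes. An unadjusted p under 0.05 was found for 0 of the 34, beside 1258 of all 18818 genes. The median difference, knockout minus wild type, was -0.03, with 14 genes above 0 and 20 below. The vehicle arrays of each genotype were spread, and the intervals were wide. The 95% interval was -2.22 to 1.47 for Mmp7, -3.77 to 0.96 for Cuzd1, -1.59 to 1.28 for Hydin, -0.70 to 1.02 for Foxj1 and -0.31 to 0.28 for Spag6. Leaving out 1 array at a time moved the median between -0.67 and 0.46.

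After αGalCer, knockout and wild type differed for 3 of the 34 genes, where limma called 21.9% of all genes higher in the knockout and 19.2% lower. This is a description too, since the genes were chosen by values that include those of these 7 arrays. Cdh1 was lower in the knockout, with a change of -2.66 ± 0.63 (adjusted p = 0.00388) and all 3 knockout arrays below all 4 wild type arrays. Spint1 was also lower there, with a change of -1.45 ± 0.48 (adjusted p = 0.0271) and again no overlap. Cfap126 was higher there, with a change of 0.58 ± 0.22 (adjusted p = 0.047) and no overlap. The Cdh1 call held in every leave-one-out fit. On all 3 knockout αGalCer arrays Cdh1 was in the background range, so the size of its difference is limited by that range. The Spint1 call was lost without wild type αGalCer array 1 or 4 or any 1 of the 3 knockout αGalCer arrays, and the Cfap126 call was lost without these and without wild type αGalCer array 2, wild type vehicle array 3 or knockout vehicle array 2. With the replicate number as a block Cfap126 did not pass (a change of 0.56). For the other 31 genes the smallest adjusted p was 0.0753, that of Tekt2, and 22 of the 34 changes were above 0. Of the 34, 13 lay in the background range on all 7 αGalCer arrays, so a difference between genotypes could be missed for them. Markers of macrophages and T cells averaged 9.83 to 10.04 on the wild type αGalCer arrays and 7.41 to 8.43 on the other 9, with none of the 11 in the background range on all arrays and 1 in it on wild type vehicle array 2. Their part in the results for Cdh1 and Spint1 was not tested. Mesothelial markers averaged 7.88 to 8.32 on the wild type αGalCer arrays and 8.41 to 9.42 elsewhere.

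Other genes of the motile cilium, from a list that shares no gene with the 34, ranked the 6 vehicle arrays by their mean as the 34 did. Of 67 measured, 57 had their highest level of all arrays on knockout vehicle array 1, as did 27 of the 34 and 17.7% of all genes. Their mean level was 5.97, 5.12 and 5.71 on wild type vehicle arrays 1 to 3, 6.51, 5.43 and 4.94 on knockout vehicle arrays 1 to 3 and 4.68 to 4.85 on the 7 αGalCer arrays. Those with the largest range were Fam183b, Cfap44, Sntn and Cfap65. Sntn was at 7.81, 5.86 and 7.22 on the wild type vehicle arrays, 3.87, 3.93, 3.87 and 3.72 on the wild type αGalCer arrays, 8.41, 6.75 and 4.41 on the knockout vehicle arrays and 3.90, 3.88 and 3.78 on the knockout αGalCer arrays. Sntn encodes sentan, a protein of the ciliary tip. Fam183b ranged over 5.05, Cfap44 over 4.72 and Cfap65 over 4.62, and each was highest on knockout vehicle array 1. In wild type 33 of the 67 passed as lower after αGalCer and 1 as higher (median -0.61), against 22% and 19.8% of all genes. In the knockout 0 passed (median -0.64). An unadjusted p under 0.05 was found there for 32 of the 67, beside 1281 of all 18818 genes. After vehicle limma called 0 of the 67 between genotypes, against 0.112% of all genes. An unadjusted p under 0.05 was found for 1 of the 67, beside 1258 of all 18818 genes. After αGalCer limma called Deup1, Dnah3, Dnal1 and Rfx2 higher in the knockout and Dnaaf3 lower. These were 4 and 1 of the 67, where it called 21.9% and 19.2% of all genes. Rfx2 encodes an RFX factor, and the others encode a centriole assembly protein (Deup1), dynein chains (Dnah3, Dnal1) and a dynein assembly factor (Dnaaf3).

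Of 48 other epithelial genes measured, 23 were highest on knockout vehicle array 1 and 9 on wild type vehicle array 3. Prss8, Prom1, Cdh16 and Slc44a4 had the largest ranges. The level of Prom1 was 7.71, 5.76 and 8.57 in wild type after vehicle and 4.43, 4.23, 4.23 and 4.10 after αGalCer, and 8.64, 6.62 and 5.16 in the knockout after vehicle and 4.64, 4.52 and 4.63 after αGalCer. Prom1, a protein of apical membrane protrusions, was nearly as high on wild type vehicle array 3 as on knockout vehicle array 1. In wild type 19 of the 48 passed as lower after αGalCer and 3 as higher (median -0.53), against 22% and 19.8% of all genes. In the knockout 0 passed (median -0.20). An unadjusted p under 0.05 was found there for 8 of the 48, beside 1281 of all 18818 genes. After vehicle limma called 0 of the 48 between the genotypes, against 0.112% of all genes. An unadjusted p under 0.05 was found for 4 of the 48, beside 1258 of all 18818 genes. After αGalCer 7 of the 48 were called higher in the knockout and 1 lower, against 21.9% and 19.2% of all genes.

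Among the non-members with an SD of at least 0.5 over the 6 vehicle arrays, 857 genes, those most like the mean of the 34 by Pearson's r were Unc5cl, Vwa3a, Igsf5, Cdh16, Lrrc74b, Calml3, Acsbg1, Ddah1, Wwc1, Rdh16, Dsp and Dnah6, with r of 0.994 or more over these 6 arrays. These arrays share their high and low libraries, and knockout vehicle array 1 weighs heavily: without it 6 of the 12 stayed among the first 12, and over all 13 arrays 4 did. Dnah6 is a dynein heavy chain and Dsp the desmosomal plaque protein desmoplakin. Among the 34 themselves r with their mean was 0.99 for Elf3, Lrp2, Hydin, Krt8 and Epcam, but 0.63 for Krt19, 0.31 for Cldn4 and -0.12 for Spag6.

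The motile cilium genes and many, but not all, of the other genes parted on 1 pair of arrays. Wild type vehicle arrays 1 and 3 had nearly the same mean over the 34 genes, 6.74 and 6.72. All 13 motile cilium genes were lower on array 3, with differences of -0.96 to -0.01, such as -0.96 for Dnali1 and -0.90 for Dnah9. Of the 8 adhesion, keratin and claudin genes 7 were higher on array 3, Cdh1 by 0.86 and Cldn3 by 0.81, and so were all 3 epithelial transcription factors. The apical genes with Cuzd1 went both ways, from -1.12 for Dao to 2.66 for Cuzd1. So did the 5 proteases and inhibitors, with 3 higher and 2 lower, and the primary cilium gene Dcdc2a was lower (-0.35). In the lists that share no gene with the 34, array 3 was lower for 55 of 67 other motile cilium genes (median -0.26) and higher for 36 of 48 other epithelial genes (median 0.17). Array 3 was higher for 46.5% of all genes. This compares 2 arrays of 1 group and has no replicate check.

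**Figure D3:**
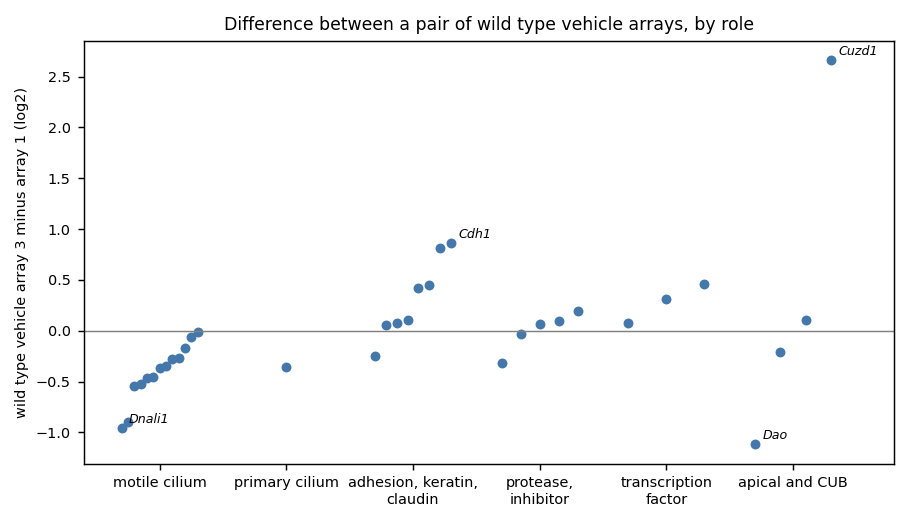
Difference in log2 level between wild type vehicle array 3 and wild type vehicle array 1 (y axis, above 0 where array 3 is higher) for each of the 34 genes, by role. The 13 motile cilium genes all lie below 0 and the 3 transcription factors above it, and Cuzd1 stands apart at 2.66.

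Wild type vehicle array 3 was also the array with transcripts of some genes of the epididymal duct and of the testis. Adam7, a surface protein of the epididymal lining, was at 9.34 there and at 3.08 to 4.19 on the other 12 arrays. Lcn12, an epididymal lipocalin, was at 8.23 against 4.75 to 6.07, and Rnase9 at 6.05 against 2.64 to 3.33. Cyp17a1, a steroid-forming enzyme of Leydig cells, was at 8.23 against 4.27 to 4.97, and Smcp, a sperm mitochondrial protein, at 7.13 against 4.24 to 5.21. The list of 22 epididymal genes averaged 4.64 on this array and 3.88 to 4.21 on the others. Of the 22, 4 were highest on it, and against wild type vehicle array 1, 9 were higher and 12 lower. On all 13 arrays 13 of the 22, among them Gpx5, Lcn5, Lcn8 and Ros1, stayed in the background range, as did 20.6% of all genes. The 14 germ cell genes of the testis averaged 4.73 on this array and 3.97 to 4.44 on the others, and 5 of the 14 were highest on it. Of the 8 genes of Leydig or Sertoli cells only Cyp17a1 was highest on it. Compared with wild type vehicle array 1, 2 of these 8 were higher on array 3 and 6 were lower. The part of these tissues in the high Cuzd1 of this array was not tested.

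Among the genes listed for efferent ducts, Slc9a3 is an apical sodium-proton exchanger. For Slc9a3, the arrays read 7.16, 5.31 and 6.38 (wild type, vehicle), 4.17, 4.14, 4.26 and 3.89 (wild type, αGalCer), 8.28, 5.86 and 4.45 (knockout, vehicle) and 4.13, 4.51 and 4.10 (knockout, αGalCer). It ranked the 6 vehicle arrays as the mean of the 34 did. Among testis genes Meig1 did the same, at 7.27, 5.16 and 3.54 on knockout vehicle arrays 1 to 3. The list as a whole did not: of its 14 genes, 1 was highest on knockout vehicle array 1 and 5 on wild type vehicle array 3. The 12 efferent duct genes did not all follow Slc9a3. After αGalCer in wild type, limma called 6 lower and 1 higher at an adjusted p of 0.05, against 22% and 19.8% of all genes. In the knockout it called 0 (median change -0.18). An unadjusted p under 0.05 was found there for 2 of the 12, beside 1281 of all 18818 genes. These 12 averaged 6.86, 6.35 and 6.81 on the wild type vehicle arrays, 7.35, 6.54 and 6.37 on the knockout vehicle arrays and 5.93 to 6.36 after αGalCer. All 9 genes of seminal vesicle and prostate lay in the background range on all 13 arrays, against 20.6% of all genes. So did 4 of 8 pancreatic genes, 3 of 9 genes of kidney tubules, 2 of 8 of Leydig or Sertoli cells and 4 of 13 of glands and airways. Umod, a kidney gene, was at 6.69 on knockout vehicle array 1 and at 4.30 to 4.99 elsewhere.

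Skeletal muscle transcripts moved with the 34 genes on some arrays and not on others. The 12 muscle genes averaged 8.60 and 7.04 on knockout vehicle arrays 1 and 2 and 8.87 on knockout αGalCer array 3, and 5.31 to 6.07 on the other 10. On knockout αGalCer array 3 the 34 genes averaged 4.93, within the 4.87 to 5.03 of the αGalCer arrays, and wild type vehicle arrays 1 and 3, with high levels of the 34, had muscle means of 5.54 and 5.43. None of the 12 muscle genes was in the background range on all arrays.

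**Figure D4:**
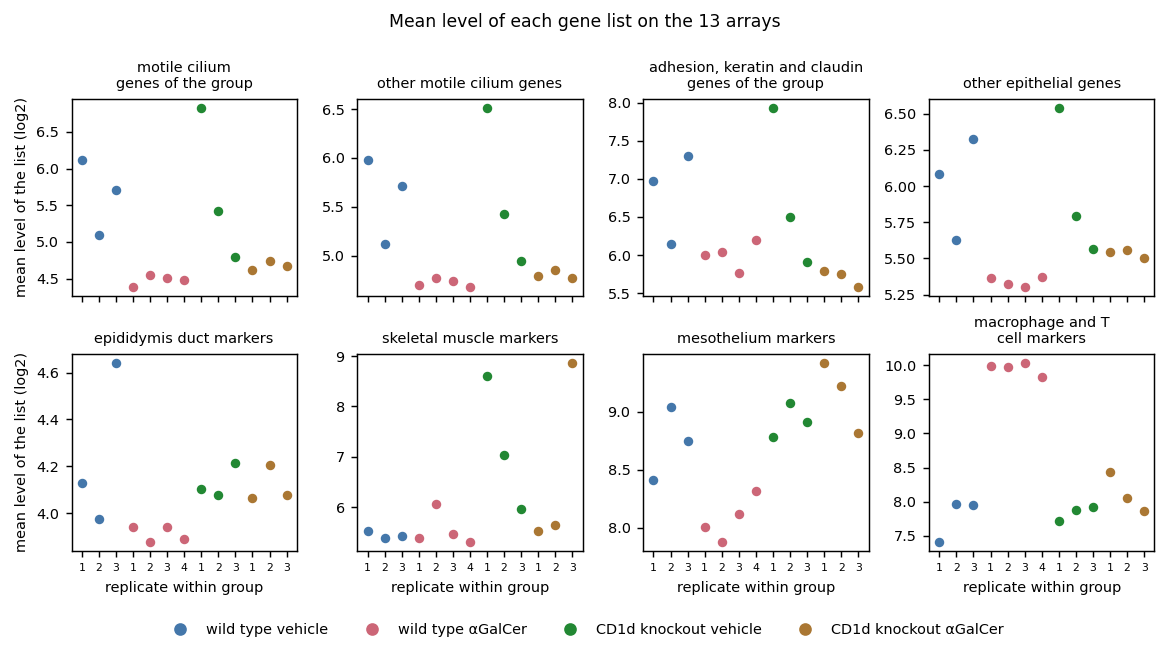
Mean log2 level of 8 gene lists (panels, each with its own y axis) on the 13 arrays, coloured by group and ordered by replicate number. In both ciliary and both epithelial panels knockout vehicle array 1 is highest and array 3 the lowest of its group, whereas epididymal markers peak on wild type vehicle array 3, muscle markers on knockout vehicle arrays 1 and 2 and knockout αGalCer array 3, and macrophage and T cell markers on the wild type αGalCer arrays.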

How the data were processed

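The authors deposited log2 expression levels per probe set, made with RMA per the submitters' processing notes. The software version and genome build were not given in the sources used here. Each of the 13 columns carried the label of 1 sample. The number of arrays limits the precision, and RMA understates differences near background.

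Names came from the platform annotation, updated with the RefSeq table of GRCm38.p6 (21185 probe sets by Entrez identifier, 3 by accession, 30 unchanged). Of 35556 probe sets, 21218 named 1 gene, 1881 several and 12457 none. The probe set with the highest mean stood for a gene, which left 18818 genes with no filter.

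A single limma fit (version 3.58.1, R 4.3.3) held all arrays, with 4 group means, 9 residual degrees of freedom and eBayes with an intensity trend. It was tested on simulated data. Tests were two-sided with Benjamini-Hochberg adjustment over the 18818 genes, and 95% intervals use the moderated degrees of freedom.

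The genes and lists were chosen with earlier results of these data known, and the motif letters were kept from several forms tried. All 34 genes are reported, with values per array where the range was at least 2. From the other lists the 4 genes with the largest range, or genes differing between genotypes, could be named, and lists with no bearing are given by counts. Slc9a3, Meig1, Umod, Gpx5, Lcn5, Lcn8 and Ros1 were in part singled out after their values were seen. Replicate numbers were not taken as a pairing. Arrays with the same number correlated, as deviations from group means, at -0.20 to 0.48 (5 of 18 pairs over 0.1). Arrays with other numbers did so at -0.57 to 0.46 (9 of 45 pairs over 0.1). Alternatives changed the variance model, a filter on dim genes, normalisation, array weights, arrays in the fit, a replicate block, probe set choice and annotation. Leaving out 3 of the arrays with epididymal or muscle transcripts was added after the data were seen.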

Additional observations from a re-analysis of the deposited data

Results flagged for a closer look

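Krt19, the simple epithelial keratin, stood apart on 1 of the 4 wild type αGalCer arrays: it was at 7.97 on array 4 and at 7.41 to 7.47 on the other arrays of that group. Chance flags about 1 in 20 groups, and 69 genes were examined in this way.

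Among the cilium genes outside the 34, the effect of αGalCer differed between the genotypes for 3 genes and for Vwa3a, one of the genes most like the 34 on the vehicle arrays. The difference of effects, knockout minus wild type on the log2 scale in limma, was -1.38 for Dnaaf3, 0.72 for Dnah3, 0.80 for Dnal1 and 1.56 for Vwa3a. Vwa3a was at 6.04 to 6.23 on the knockout αGalCer arrays and at 4.15 to 4.86 on the wild type ones. Such a difference was called for 28.2% of all genes.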

How the results depend on the processing

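No called value changed direction. The medians of 2 contrasts in which no gene was called took both signs with 1 array left out: -0.67 to 0.46 between genotypes after vehicle and -0.41 to 0.73 for the difference of effects. With 1 array left out at a time, genes called in wild type numbered 9 to 28. The knockout median was -1.64 to -0.39, genes called for the difference of effects numbered 0 to 2, and genes called between genotypes after αGalCer numbered 1 to 5. With array weights 7 genes were called in the knockout, Dnah5, Rsph4a, Hydin, Dcdc2a, Krt8, Mmp7 and Dao, 3 for the difference and 5 between genotypes after αGalCer. With only the groups of the contrast in the fit, 8 were called between genotypes after αGalCer. With probe sets naming several genes included, 1 was called for the difference. A fit chosen after the data were seen left out wild type vehicle array 3, knockout vehicle array 1 and knockout αGalCer array 3. Its knockout median was -0.35, with 3 genes called for the difference and 6 between genotypes after αGalCer. Knockout vehicle array 2, which also carried muscle transcripts, stayed in this fit. Why these counts moved was not tested. The share of all genes called in these alternative fits is not given here, so the counts are a description and support nothing. With the replicate block 16 genes were called in wild type, 0 in the knockout, 0 for the difference, 0 between genotypes after vehicle and 3 after αGalCer. The numbers were not taken to pair the arrays.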
